A study of Homo sapiens with 10 samples.

Results

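The transcripts of 10 genes for secreted inflammatory signals were followed through 7 human ovarian cancer cell lines by nanopore long-read RNA sequencing. They are the neutrophil chemokines CXCL1, CXCL2, CXCL3, CXCL5, CXCL6 and CXCL8, the chemokines CCL2 and CCL20, and the cytokines IL6 and LIF. Members were found by gene name in the deposited annotation, which gave 10 of 57110 gene identifiers and 20 of 99493 transcripts, none of them under an identifier shared with another gene. A PromethION library was made once from each of 6 lines, namely COV362, COV504, OVKATE, OVMANA, OVTOKO and SK-OV-3. IGROV-1 was sequenced 4 times, with 2 libraries on each instrument, the PromethION and the smaller-scale MinION. The labels name the line and the instrument and give no treatment for any library. They do not say that the IGROV-1 libraries came from separate cultures. The p-values rest on counting error and on the spread between these libraries, in part shared over genes. That spread may be technical.

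Chemokines are small secreted proteins that draw leukocytes along a gradient. The 6 CXCL members carry the glutamate, leucine and arginine (ELR) motif ahead of their paired cysteines and attract neutrophils through the receptors CXCR1 and CXCR2. CCL2 attracts monocytes through CCR2, and CCL20 attracts lymphocytes and dendritic cells through CCR6. IL6 and LIF belong to a cytokine family that signals through the shared receptor chain IL6ST (gp130) to the kinase JAK1 and the transcription factor STAT3. Many of these genes are known targets of the transcription factor NF-kB, and several of their mRNAs carry AU-rich elements that shorten their life. In ovarian cancer, IL-6 and CXCL8 are known from ascites fluid and tumour culture medium.

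The stretch around an NF-kB-like match before the RefSeq start of each gene is printed because this string is what the ELR genes share there. RefSeq start sites on GRCh38.p14 had an entry for 8 of the 10 members, and CCL2 and LIF had none. The 120 bases before each start were searched on either strand for GGGNNTTTCC and for GGAATTTCC, a pair of strings that overlap each other and that were chosen after the sequences had been seen. Capitals mark a match, each run holds 30 bases, 5′ to 3′ on the strand of the gene.
CXCL1: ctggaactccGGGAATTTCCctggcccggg
CXCL2: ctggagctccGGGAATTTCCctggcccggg
CXCL3: ctggagctccGGGAATTTCCctggcccggc
CXCL5: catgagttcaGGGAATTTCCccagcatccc
CXCL6: cctgagttcaGGGAATTTCCccagcatccc
CXCL8: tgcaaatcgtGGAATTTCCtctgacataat
CCL20: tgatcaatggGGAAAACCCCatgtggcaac
IL6: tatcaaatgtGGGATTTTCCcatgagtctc

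The 10-base string was present in 7 of the 8 member promoters and in 318 of 35116 promoters in all (0.906%). The 9-base string was present in 6 of the 8, all of them ELR genes, and in 75 of all promoters (0.214%). In CXCL1 the match began 79 bases before the RefSeq start and the printed run lies at chr4:73869304-73869333 on the plus strand. In CXCL5 the match began 91 bases before the start, with the run at chr4:73998749-73998778 on the minus strand. In IL6 it began 73 bases before the start, at chr7:22727117-22727146 on the plus strand. RefSeq starts and those of the deposited transcripts differ for some members. The runs of CXCL2, CXCL5 and CXCL6 lie inside their deposited transcript, near its 5′ end. The IL6 run ends at the base before ENST00000258743 but lies 3′ of the start of ENST00000404625, the most counted IL6 transcript, so it is not the stretch before that start. CCL20 held the 10-base string on the other strand only. Over the whole 120 bases, CXCL1 was 93.4% identical to CXCL2 and 90.8% identical to CXCL3, and CXCL5 was 90.9% identical to CXCL6. A match is a description of these letters and says nothing of whether a factor binds there.

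The ELR genes form a cluster on chromosome 4, where all 6 lie between bases 73740506 and 74099293 of GRCh38, a span of 358788 bases. CCL2 is on chromosome 17 (34255285 to 34257203), CCL20 on chromosome 2 (227813842 to 227817564), IL6 on chromosome 7 (22725884 to 22732002) and LIF on chromosome 22 (30240447 to 30246851). All 20 member transcripts had the same position in GENCODE 29, and 13 of them had 1 count or more in a library. The 3′ UTR of the most counted transcript held the pentamer ATTTA, the core of many AU-rich elements, most densely in IL6 (14.0 per kb), CXCL2 (13.9 per kb) and CXCL3 (10.4 per kb). CXCL8 had 7.19 per kb and CXCL1 7.08 per kb, and the sparsest were CCL2 (2.66 per kb) and LIF (2.19 per kb). The median over the longest 3′ UTR of 19105 other genes was 1.48 per kb. CXCL1, CXCL2 and CXCL3 are close copies: the transcript of CXCL1 was 79.9% identical to that of CXCL2 and 69.5% identical to that of CXCL3, so a read of one may have been counted for another.

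Library totals ran from 1729782 to 3666224 counts. Levels are in CPM, the share of a library's counts scaled to 1000000, which equals the deposited TPM because that TPM is not divided by transcript length. A gene without a count in a library of 1 of the 6 lone lines may still have a level of up to 1.18 to 1.73 CPM (3 counts), and over both IGROV-1 PromethION libraries of up to 0.643 CPM. Mitochondrial ribosomal RNA took 9.13% and 10.9% of the counts of the IGROV-1 PromethION libraries, 1.15% and 1.01% of the MinION libraries, and 1.58% to 3.31% elsewhere. With it left out, the counts of members called below were the same in all 6 lines. Of the Müllerian and ovarian markers, PAX8 (84.1 to 339.8 CPM) and SOX17 (10.4 to 146.4 CPM) were present in every library. WT1 was at 76.2 CPM in OVKATE, 0.392 CPM in COV362 and 0 elsewhere, and MUC16 (CA-125) was at 11.6 to 57.4 CPM in OVMANA, OVKATE, COV362 and COV504 and at 0 to 0.859 CPM in the other libraries. Of 9 leukocyte markers, 0 to 4 had a count in a library and their summed level was 0 to 25.6 CPM. CD3E and TYROBP were at 0 in every library and PTPRC was at 0.445 CPM or less. The highest sum was that of OVMANA, of which 23.0 CPM was CSF3R, the receptor of granulocyte colony-stimulating factor, and its part in the OVMANA levels was not tested. The epithelial markers EPCAM (at most 1.54 CPM) and KRT7 (0 CPM) were near or at 0 in IGROV-1 and KRT8 was low there (5.15 to 11.4 CPM), while KRT18 (243.6 to 1080 CPM) and KRT19 (140.1 to 177.0 CPM) were present. OVTOKO was also low in EPCAM (8.67 CPM), KRT7 (14.5 CPM) and KRT19 (0.578 CPM), with KRT8 at 133.5 CPM and KRT18 at 314.5 CPM. The summed level of 3 endothelial markers was 0.534 to 25.8 CPM and that of 5 fibroblast markers 0.578 to 434.1 CPM. The highest fibroblast sums were those of COV362, SK-OV-3 (329.7 CPM) and COV504 (113.9 CPM), made up mainly of COL1A2 in COV362 and of COL1A1 in SK-OV-3 and COV504. DCN was at 0.578 CPM or less in every library, and LUM reached 52.7 CPM in SK-OV-3.

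The lines differed in which of the genes they expressed. In IGROV-1, 8 of the 10 genes had no count in any of the 4 libraries, which together held 11571972 counts and allow a level of up to 0.259 CPM. The exceptions were LIF, counted in all 4, and CXCL3, with 1 count in each MinION library. At the other end, the 10 genes together reached 3513 CPM in OVMANA, with COV504 at 999.7 CPM and OVTOKO at 799.5 CPM. OVKATE (123.2 CPM), COV362 (100.3 CPM) and SK-OV-3 (81.5 CPM) were far lower, and IGROV-1 had 7.36 to 16.3 CPM. COV362 and COV504 had counts of all 10 genes, OVMANA of 9, OVKATE and OVTOKO of 7 and SK-OV-3 of 6. In bulk RNA, fewer expressing cells and less RNA per cell cannot be told apart.

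**Figure D1:**
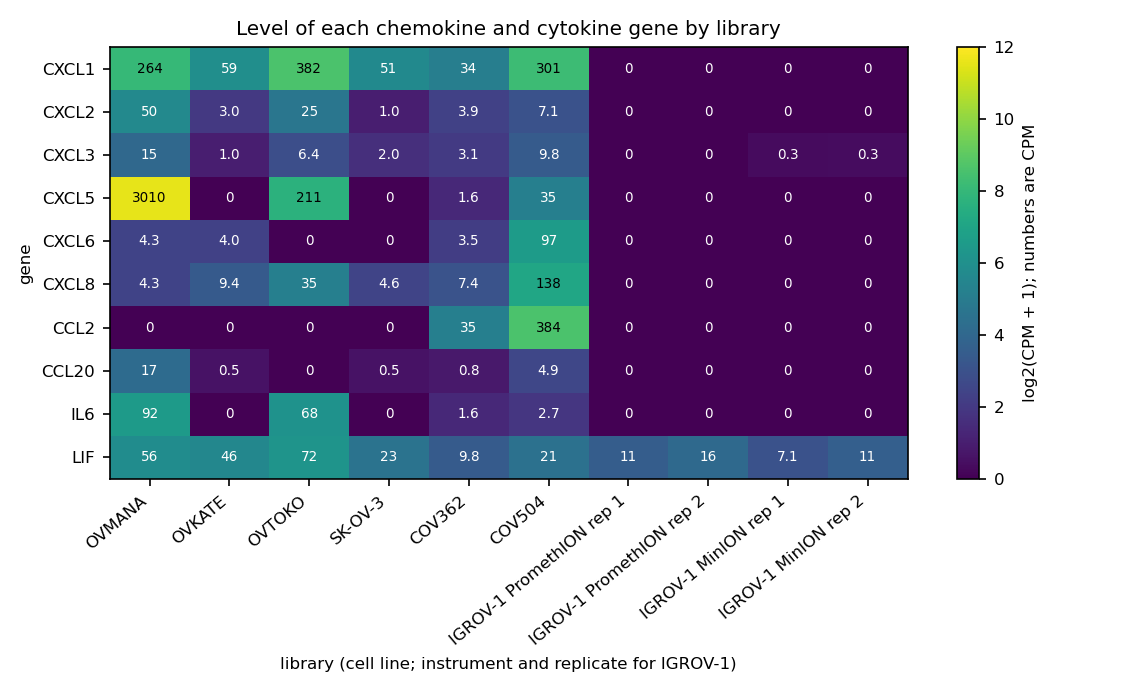
Level of each of the 10 genes (rows) in each of the 10 libraries (columns), coloured by log2(CPM + 1) with the CPM written in each cell. The 4 IGROV-1 columns are at 0 except for LIF and CXCL3, and the brightest cell is CXCL5 in OVMANA at 3010 CPM.

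Counts of CXCL1, CXCL2, CXCL3 and CXCL8 were found in all 6 lines other than IGROV-1. CXCL2 in SK-OV-3 and CXCL3 in OVKATE had only 2 counts each, under the floor of 3 counts. CXCL1 was above this floor in all 6 lines. Its level was 381.6 CPM in OVTOKO (660 counts), 301.2 CPM in COV504 (677 counts), 264.5 CPM in OVMANA (495 counts), 59.4 CPM in OVKATE (120 counts), 50.6 CPM in SK-OV-3 (100 counts) and 33.7 CPM in COV362 (86 counts). The 6 lines fall into an upper and a lower group of 3, and the step between OVMANA and OVKATE was a log2 difference of 2.52 ± 0.22 (SE; adjusted p = 0.000348). Neighbours within each group were not told apart (p-values adjusted within a pair of lines over all genes tested), with adjusted p between 0.0984 and 0.894. Against the IGROV-1 PromethION floor, CXCL1 was at least 594-fold higher in OVTOKO (adjusted p = 5.14e-06) and at least 52.4-fold higher in COV362 (adjusted p = 9.59e-05).

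CXCL5 had the widest range of the members. It stood at 3010 CPM in OVMANA (5633 counts, 95% Poisson interval 2932 to 3090 CPM), 211.0 CPM in OVTOKO (365 counts), 34.7 CPM in COV504 (78 counts) and 1.57 CPM in COV362 (4 counts). It had no count in OVKATE, SK-OV-3 or IGROV-1. In OVMANA it was the 39th most abundant of 13186 genes with counts. OVMANA exceeded OVTOKO by a log2 difference of 3.82 ± 0.21 (SE; adjusted p = 0.000122), and OVTOKO exceeded COV504 by 2.76 ± 0.23 (SE; adjusted p = 0.00041). CXCL6, its nearest relative by promoter sequence, had another order. It was at 96.5 CPM in COV504 (217 counts), at 4.27 CPM in OVMANA, 3.96 CPM in OVKATE and 3.53 CPM in COV362 (8 to 9 counts each), and had no count in OVTOKO or SK-OV-3. COV504 exceeded OVMANA in CXCL6 by a log2 difference of 4.34 ± 0.42 (SE; adjusted p = 0.000625), the reverse of their order in CXCL5.

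CXCL8 (interleukin-8), the prototype neutrophil attractant, was highest in COV504 at 138.4 CPM (311 counts), followed by OVTOKO at 35.3 CPM (61 counts). The log2 difference between them was 1.81 ± 0.27 (SE; adjusted p = 0.00366), and OVTOKO exceeded OVKATE (9.40 CPM) by 2.28 ± 0.37 (SE; adjusted p = 0.004). COV362 (7.44 CPM), SK-OV-3 (4.56 CPM) and OVMANA (4.27 CPM) followed, and among OVKATE, COV362, SK-OV-3 and OVMANA no neighbouring pair was called. OVMANA, the line with by far the most CXCL5, was thus at the low end for CXCL8, with 8 counts.

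CXCL2 and CXCL3, the near copies of CXCL1, had a lower CPM than CXCL1 in each of the 6 lines, and their transcripts are of similar length (1218 and 1075 against 1097 bases). CXCL2 was at 49.7 CPM in OVMANA (93 counts), 25.4 CPM in OVTOKO (44 counts) and 7.12 CPM in COV504 (16 counts), and at 1.01 to 3.92 CPM in the other 3 lines. OVTOKO exceeded COV504 by a log2 difference of 1.99 ± 0.45 (SE; adjusted p = 0.0183), while OVMANA and OVTOKO were not told apart (0.95 ± 0.35 SE; adjusted p = 0.097). CXCL3 was at 15.5 CPM in OVMANA (29 counts), 9.79 CPM in COV504 (22 counts), 6.36 CPM in OVTOKO (11 counts) and 0.989 to 3.13 CPM in the other 3 lines. No neighbouring pair in the order of CXCL3 was called, with adjusted p from 0.238 upward.

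Set together, the lines differed in which chemokine made up the ELR counts. CXCL5 was 89.9% (95% Wilson interval 89.1 to 90.6%) of the 6266 ELR counts of OVMANA. In OVTOKO CXCL1 was 57.8% (55.0 to 60.7%) and CXCL5 32.0% (29.4 to 34.8%) of 1141 counts. COV504 had the most even make-up, with CXCL1 at 51.2% (48.6 to 53.9%), CXCL8 at 23.5% (21.3 to 25.9%) and CXCL6 at 16.4% (14.5 to 18.5%) of 1321 counts. CXCL1 led in SK-OV-3 (87.0% of 115 counts), OVKATE (77.4% of 155) and COV362 (63.2% of 136). Intervals cover counting error only. These are shares of counts. With each count divided by the length of its transcript, CXCL5 was 79.7% in OVMANA and CXCL1 was 72.7% in OVTOKO and 62.3% in COV504, and the leading gene was the same in all 6 lines.

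**Figure D2:**
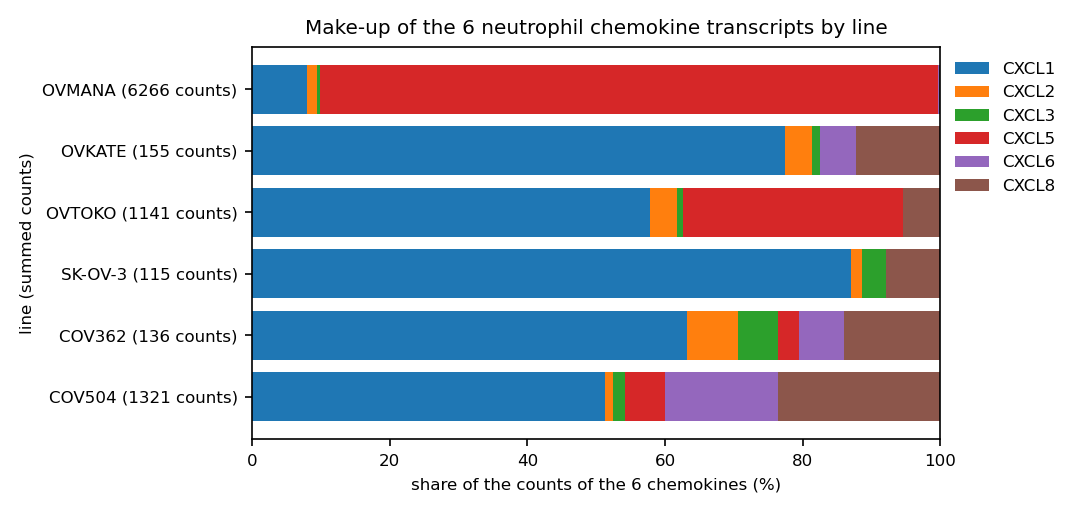
Share of each ELR chemokine in the summed counts of the 6 genes, in percent, for the 6 lines with such counts (summed counts in brackets). CXCL5 fills 89.9% of the OVMANA bar, and CXCL1 is the largest segment of the 5 other bars.

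**Figure D3:**
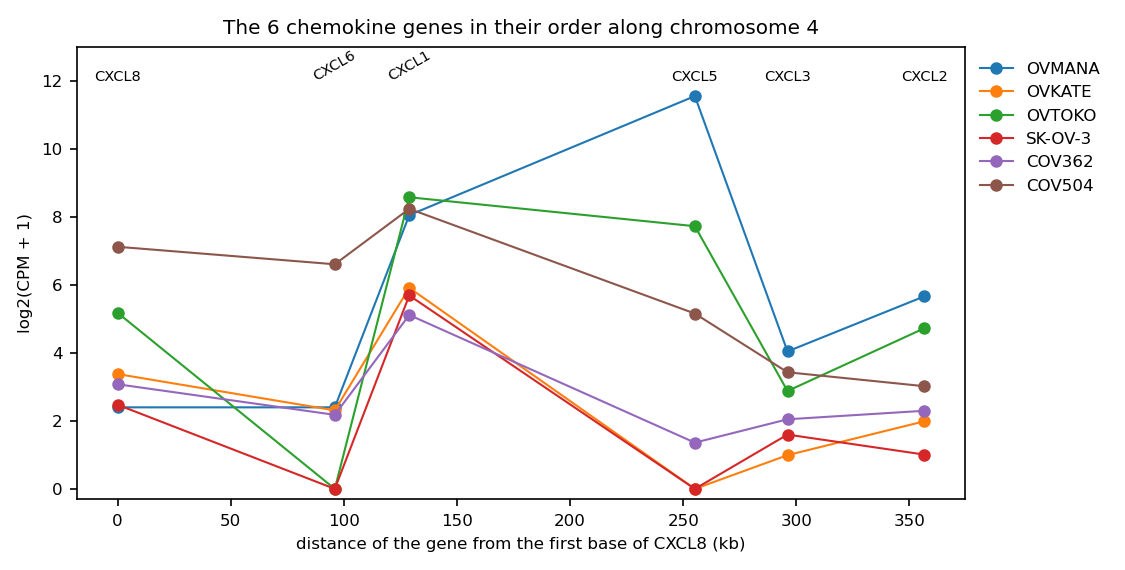
Level of the 6 ELR genes as log2(CPM + 1), placed by the distance of each gene from the first base of CXCL8 in kb, with 1 point per gene and line; the connecting lines only join points of a line. The highest point is CXCL5 in OVMANA and CXCL1 in the 5 other lines, and CXCL6, between CXCL8 and CXCL1, is at 0 in OVTOKO and SK-OV-3.

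The CC chemokines were restricted to fewer lines. CCL2 was at 383.5 CPM in COV504 (862 counts) and 34.9 CPM in COV362 (89 counts) and had no count in the other 8 libraries. Endothelial and fibroblast markers were mixed in these lines. CDH5 was at 24.9 CPM in COV504, 7.05 CPM in COV362, 0.854 to 6.87 CPM in IGROV-1 and 0 in the other 4 lines, while PECAM1 was at 0.890 and 2.74 CPM in COV504 and COV362 and VWF at 0 in both. COL1A2 was at 429.4 CPM in COV362, 57.2 CPM in SK-OV-3 and 31.6 CPM in COV504. COL1A1 was at 4.31 CPM in COV362, 81.4 CPM in COV504 and 219.3 CPM in SK-OV-3, which had no CCL2 count. DCN, LUM and PDGFRB were at 0.445 CPM or less in COV504 and COV362. The part of such markers in the CCL2 levels was not tested. COV504 exceeded COV362 by a log2 difference of 3.34 ± 0.23 (SE; adjusted p = 0.000509), and the level of COV504 was at least 597-fold above the IGROV-1 PromethION floor. CCL20 was at 17.1 CPM in OVMANA (32 counts) and 4.89 CPM in COV504 (11 counts), with 2 counts or fewer elsewhere. OVMANA and COV504 did not differ in CCL20 at the threshold (log2 1.93 ± 0.60 SE; adjusted p = 0.0505).

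IL6 was found in strength in OVMANA, at 91.9 CPM (172 counts, 95% Poisson interval 78.7 to 106.7 CPM), and in OVTOKO, at 67.6 CPM (117 counts, 55.9 to 81.1 CPM). These lines were not told apart (log2 0.43 ± 0.26 SE; adjusted p = 0.294). COV504 had 2.67 CPM (6 counts) and COV362 1.57 CPM (4 counts), and OVKATE, SK-OV-3 and IGROV-1 had no count. The drop from OVTOKO to COV504 was a log2 difference of 4.79 ± 0.43 (SE; adjusted p = 0.000553). IL6 in OVMANA was at least 143-fold above the IGROV-1 PromethION floor (adjusted p = 4.29e-05).

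The IL6 reads came mainly from a pair of transcripts that differ in their first exon. ENST00000404625 starts 1263 bases upstream of ENST00000258743 and has 6 exons against 5. It held 67.0% (95% Wilson interval 59.7 to 73.6%) of the IL6 counts of OVMANA and 51.8% (42.8 to 60.6%) of those of OVTOKO, and ENST00000258743 held 32.7% and 47.2%. The intervals of the upstream form overlap slightly, and the difference was not tested. Among the other members, CCL20 was the only one with counts on more than 1 transcript in a library with at least 20 counts of the gene. There ENST00000409189 held 60.7% (43.5 to 75.6%) of the 32 counts of OVMANA and ENST00000358813 the remainder.

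LIF, named for its effect on leukaemia cells and known for keeping mouse embryonic stem cells undifferentiated, was the only member found in all 10 libraries. Its level was 72.3 CPM in OVTOKO (125 counts), 56.1 CPM in OVMANA (105 counts), 46.0 CPM in OVKATE (93 counts), 22.8 CPM in SK-OV-3 (45 counts), 20.9 CPM in COV504 (47 counts) and 9.79 CPM in COV362 (25 counts). IGROV-1 had 10.7 and 16.3 CPM on the PromethION (13.5 ± 3.99, SD, n = 2) and 7.09 and 11.4 CPM on the MinION (9.26 ± 3.07, SD, n = 2). LIF was higher than in IGROV-1 PromethION in OVTOKO (5.63-fold, log2 2.49 ± 0.29 SE; adjusted p = 0.000411), in OVMANA (4.33-fold, log2 2.11 ± 0.30 SE; adjusted p = 0.000972) and in OVKATE (2.76-fold, log2 1.46 ± 0.31 SE; adjusted p = 0.00463, but 0.175 with DESeq2). SK-OV-3, COV504 and COV362 were not told apart from IGROV-1 PromethION (log2 0.53, 0.55 and -0.42; adjusted p = 0.262, 0.232 and 0.423). No neighbouring pair in the order of LIF was called.

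**Figure D4:**
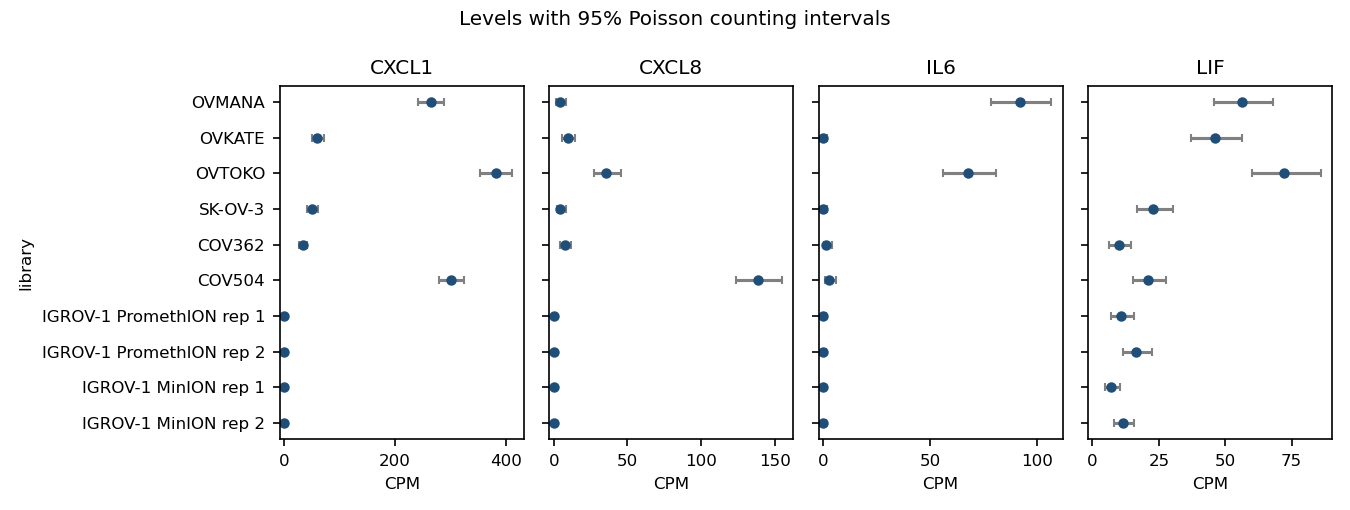
CPM of CXCL1, CXCL8, IL6 and LIF (x axes, linear, 1 scale per panel) in each library, with 95% Poisson counting intervals as bars. CXCL1 separates OVTOKO, COV504 and OVMANA from the rest, CXCL8 is highest in COV504, IL6 is high in OVMANA and OVTOKO alone, and LIF is present in all 10 libraries.

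Each lone line was compared with IGROV-1 PromethION by edgeR's quasi-likelihood test over 13030 genes, with Benjamini-Hochberg adjustment and a call at an adjusted p under 0.05. All 10 members entered the test, but they passed its filter on low counts through the lines where they are high. The spread came only from the IGROV-1 pairs, with 2 residual degrees of freedom. The 8 members without a count in IGROV-1 show no spread there, and CXCL3 had only 1 count in each MinION library. Their SEs and p-values therefore rest on the spread of other genes in those pairs and on counting error. A lone library is taken to vary as those pairs do. In OVMANA 9 members were called higher, where 18.9% of all genes tested were called higher and 16.5% lower. In COV504 the number was 9 (24.0% of all genes higher, 19.6% lower), in COV362 8 (23.7% higher, 18.8% lower) and in OVTOKO 7 (18.2% higher, 15.9% lower). In OVKATE it was 5 (26.8% higher, 22.4% lower) and in SK-OV-3 3 (22.0% higher, 19.8% lower). No member was called lower in any line, but only LIF could be. The others had no count in IGROV-1 PromethION. The SK-OV-3 share is close to the background.

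Of the 41 calls, 26 held under every alternative setting and 15 were lost under at least 1. The lost calls had up to 32 counts in the line, and 93 for LIF in OVKATE, while CXCL2 in COV362 kept its call with 10 counts. COV362 rested most on its thin members: its 8 calls became 4 without MinION replicate 1, losing CXCL3, CXCL5, CXCL6 and IL6, each at 4 to 9 counts. Without the same library, 3 calls were left in OVKATE and 1 in SK-OV-3, that of CXCL1. Among the members, 44 pairs of neighbouring lines in the order of levels could be tested, and 14 of them differed. Over all 21 pairs of lines together, 35.4% of gene tests were called, but neighbours were chosen as nearest in level, so the shares are not comparable.

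Between the instruments, within IGROV-1, only LIF had enough counts to test, among 10041 genes. Its log2 difference, MinION minus PromethION, was -0.60 ± 0.32 (SE; edgeR adjusted p = 0.396), so no member was called, against 0.817% of all genes tested. With edgeR 0 members had an unadjusted p under 0.05, and with DESeq2 0 were called and 0 had an unadjusted p under 0.05. The other 9 genes were at or near 0 on both instruments, and a difference was not detectable at this depth.

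A pair of lines with high IL6, OVMANA and OVTOKO, can be set side by side gene by gene. CXCL1, CXCL2, CXCL3, IL6 and LIF did not differ between them at the threshold (adjusted p = 0.0897 to 0.4). CXCL5 was higher in OVMANA, as given above, and CCL20 was counted in OVMANA only (32 against 0 counts; adjusted p = 0.0106). CXCL8 went the other way, lower in OVMANA by a log2 difference of -3.05 ± 0.44 (SE; adjusted p = 0.00454). Between COV504 and COV362, both with CCL2, COV504 was higher in CXCL1 (log2 3.04 ± 0.23 SE; adjusted p = 0.000569), CXCL5 (4.31 ± 0.43 SE; adjusted p = 0.00152), CXCL6 (4.64 ± 0.40 SE; adjusted p = 0.000939), CXCL8 (4.09 ± 0.32 SE; adjusted p = 0.000684) and CCL2. CXCL2, CXCL3, CCL20, IL6 and LIF were not called between them.

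Of the receptors for the members, 3 of 9 listed genes had enough counts to test. CXCR1, CXCR2 and CCR2 had no count in any library, and ACKR1, a chemokine scavenger, had at most 0.445 CPM. CCR6 and the scavenger ACKR2 lay under identifiers joined to other genes and were not assigned. IL6R, which binds IL-6, was at 73.2 CPM in OVMANA and 29.5 CPM in OVTOKO, the lines with the most IL6, and at 0 to 4.56 CPM in the other 8 libraries. It was higher than in IGROV-1 PromethION in both (log2 8.17 ± 0.51 and 6.88 ± 0.62 SE; adjusted p = 1.22e-05 and 0.000106). It was also called higher in COV362 (log2 4.08 ± 0.93 SE; adjusted p = 0.00836) and SK-OV-3 (log2 3.90 ± 0.97 SE; adjusted p = 0.0124), which had little or no IL6, and DESeq2 gave neither of these calls. IL6ST, the chain shared by IL-6 and LIF, was present in all libraries at 40.6 to 115.7 CPM, highest in COV504 (log2 1.36 ± 0.17 SE against IGROV-1 PromethION; adjusted p = 0.000464).

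LIFR, the receptor chain for LIF, was highest in IGROV-1. It was at 42.5 to 61.1 CPM in the IGROV-1 libraries, at 5.78 to 11.1 CPM in OVTOKO, SK-OV-3, COV362 and COV504, and without a count in OVMANA and OVKATE. LIFR was called lower in all 6 lines (log2 -2.21 to -2.99 in the 4 lines with counts; adjusted p = 5.24e-05 to 0.00113 over the 6 lines). In COV504 that call was lost with DESeq2. OVMANA and OVKATE, which had 56.1 and 46.0 CPM of LIF, were thus the lines with no LIFR count.

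The rest of the pathway was read from gene lists, each described by its counts and its median. Of all genes tested, 18.2 to 26.8% were called higher and 15.9 to 22.4% lower, depending on the line. A list count near these shares is not a result about the list. Of 16 genes of IL-6 family ligands and STAT3 signalling, 12 were tested, and 6 were higher and 2 lower in OVMANA (median log2 difference 1.42). Over all genes tested the median was between -0.01 and 0.04 in the 6 comparisons. OVTOKO had 6 higher and 1 lower (median 1.29). COV362 had 5 and 1, OVKATE 4 and 2, COV504 4 and 2, and SK-OV-3 4 and 4. OSMR, the receptor chain for oncostatin M, was at 112.7 CPM in OVMANA and 95.4 CPM in OVTOKO, at 28.5 to 46.1 CPM in SK-OV-3, COV362 and COV504, at 1.98 CPM in OVKATE, and at 0 to 0.43 CPM in IGROV-1. JAK1, the kinase that carries the signal from IL6ST, was at 4.30 to 5.98 CPM in IGROV-1 and at 37.6 to 119.0 CPM in the 6 other lines, all called higher (log2 2.90 to 4.59). CTF1 (cardiotrophin-1), another ligand of this family, was highest in OVKATE at 43.0 CPM, a call that DESeq2 did not give.

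Of 13 NF-kB subunits and inhibitors, all tested, 5 were higher and 0 lower in OVMANA (median log2 difference 0.42) and 4 higher and 1 lower in OVTOKO (median 0.68). OVKATE had 1 higher and 3 lower (median -0.76), SK-OV-3 3 and 4, COV504 2 and 2, and COV362 1 and 1. NFKBIZ, an atypical IkB protein that acts as a co-activator at IL6 and other secondary response genes, was at 141.6 CPM in OVMANA and 166.5 CPM in OVTOKO. It was at 14.6 to 22.9 CPM in IGROV-1 and 1.48 to 14.5 CPM in the other lines, and it was called higher in the first pair (log2 2.98 ± 0.29 and 3.23 ± 0.28 SE; adjusted p = 0.000121 and 9.44e-05). It was called lower than in IGROV-1 PromethION in OVKATE (log2 -3.90 ± 0.68 SE; adjusted p = 0.0018) and in COV504 (log2 -2.45 ± 0.55 SE; adjusted p = 0.00733). NFKB2, the precursor of p52, was at 78.0 CPM in OVMANA (log2 2.98 ± 0.25 SE; adjusted p = 5.51e-05) and at 4.56 to 18.3 CPM elsewhere. CHUK, a subunit of the IkB kinase, was at 2.03 CPM in SK-OV-3 and 9.40 to 17.1 CPM in the other libraries.

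Of 17 further NF-kB target genes, 13 were tested. In OVTOKO 9 were higher and 1 lower (median log2 difference 3.26), in COV504 9 and 0 (median 2.16), in OVKATE 8 and 2 (median 1.53) and in OVMANA 6 and 1 (median 0.59). In COV362 it was 5 and 0 (median 0.40) and in SK-OV-3 5 and 1 (median 0.01). Of the 3 targets with the widest range, none followed the order of the lines in the summed ELR chemokines. The order of the other targets was not compared. LCN2 (lipocalin-2), an iron-siderophore-binding protein, was at 1848 CPM in OVKATE and had no count in OVMANA. C3, the central complement component, was at 1087 CPM in OVTOKO, and SAA1, an acute-phase protein, was at 260.1 CPM in OVTOKO. LCN2 and C3 had at most 1 count in any IGROV-1 library, and SAA1 stood at 0 to 2.47 CPM there.

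Among 22 upstream cytokines and receptors, 14 were tested, and between 5 and 8 were higher in each line against 1 or 2 lower. The 8 of COV362 ran down to 2 under the alternatives. IL18 was higher in all 6 lines, from 43.1 CPM in COV362 to 417.3 CPM in OVMANA, against 0 to 1.09 CPM in IGROV-1. LTB (lymphotoxin beta), a ligand that activates the non-canonical NF-kB arm, was at 166.2 CPM in OVMANA and at most 4.70 CPM elsewhere. IL1R1, the receptor for IL-1, was highest in IGROV-1 (62.1 to 76.0 CPM) and was called lower in all 6 lines, though not in OVTOKO with DESeq2. MYD88, the adaptor below IL1R1 and the Toll-like receptors, had no count in any IGROV-1 library and stood at 4.05 to 35.1 CPM in the other lines. This gene was singled out after its values were seen.

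**Figure D5:**
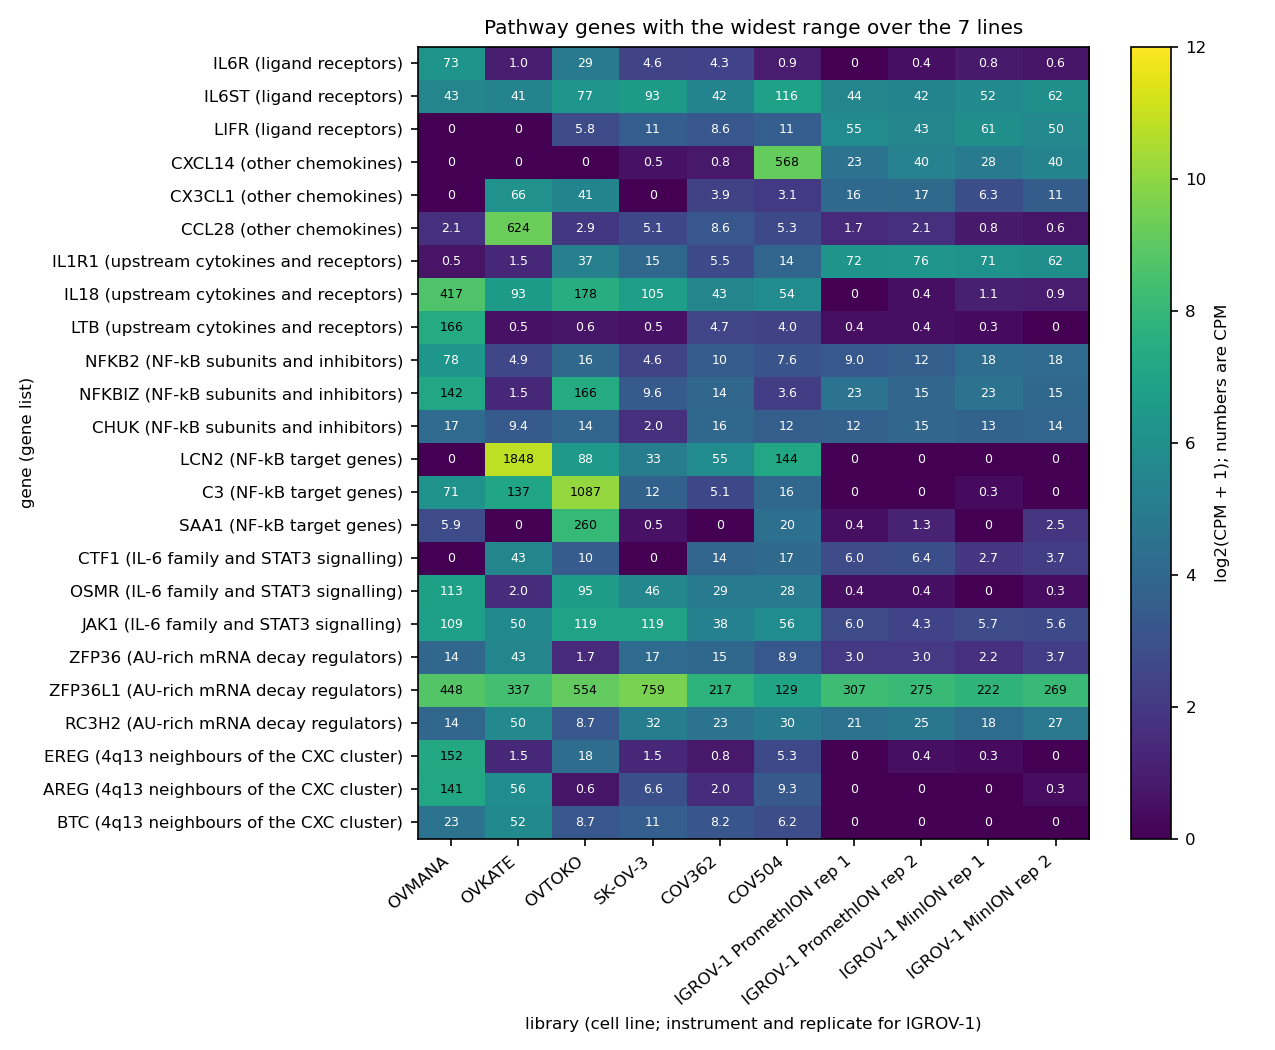
Level of pathway genes (rows, with the name of their list) in each library (columns), coloured by log2(CPM + 1) with the CPM in each cell; shown are the genes of each list with the widest range over the 7 lines. IL6R, NFKBIZ and OSMR are brightest in OVMANA and OVTOKO, while LIFR and IL1R1 are brightest in the 4 IGROV-1 columns.

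Of 24 other chemokines, 7 were tested, and 1 to 4 were higher and 1 or 2 lower in each line. CXCL14 was at 568.1 CPM in COV504 and 22.6 to 40.2 CPM in IGROV-1, and at 0.784 CPM or less in the other lines. CCL28, a mucosal chemokine, was at 624.2 CPM in OVKATE and at most 8.62 CPM elsewhere. CX3CL1 (fractalkine) was at 65.8 CPM in OVKATE and 41.0 CPM in OVTOKO, 6.27 to 16.8 CPM in IGROV-1, 3.11 to 3.92 CPM in COV504 and COV362, and 0 in OVMANA and SK-OV-3. Among 10 genes flanking the ELR cluster on chromosome 4, 6 were tested. In each line 2 or 3 were higher, and 1 was lower in OVMANA. AREG and EREG, ligands of the EGF receptor, were at 140.5 and 151.8 CPM in OVMANA, where CXCL5 is highest. AREG was at 55.9 CPM in OVKATE, and EREG at 18.5 CPM in OVTOKO. BTC, a further EGF family ligand of this segment, was called higher in all 6 lines (6.23 to 51.9 CPM, against no count in IGROV-1).

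Of 11 regulators of AU-rich mRNA decay, all tested, 1 or 2 were higher and 2 to 5 lower in each line. The medians were log2 -0.67 to -0.19. Over the alternatives the number lower ran from 0 to 6 in OVTOKO. ZFP36 (tristetraprolin), which binds AU-rich elements and speeds decay of such mRNAs, was at 1.73 CPM in OVTOKO and 14.4 CPM in OVMANA, and highest in OVKATE at 43.0 CPM (log2 3.52 ± 0.35 SE against IGROV-1 PromethION; adjusted p = 9.66e-05). ZFP36L1, its relative, was at 128.6 to 759.2 CPM in all libraries. RC3H2, which binds stem-loops in cytokine mRNAs, was at 8.67 CPM in OVTOKO and up to 49.95 CPM in OVKATE.

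The genes whose levels ran most like the members over the 7 lines were taken from 10740 other genes, by Pearson correlation of log2(CPM + 1). With 7 points that share library depth and 10740 genes to choose from, high values are a description only. The summed ELR chemokines were most like ADAM17 (r = 0.99), the protease that sheds TNF and EGF family ligands, which ran from 16.3 CPM in IGROV-1 PromethION to 68.9 CPM in OVMANA. Next came CDC42EP2, TGM2, EPS8 and PIK3CB (r = 0.95 to 0.96). IL6 was most like SH2B2 (r = 0.97), CCND3 (0.97), C2CD4A (0.97), IMP4 (0.96) and FA2H (0.96). C2CD4A had counts in OVMANA (15.5 CPM) and OVTOKO (13.9 CPM) and in no other PromethION library. Genes like LIF included COQ8B (r = 0.97), ATP5L (0.96), KLF6 (0.94) and PPP2R3A (0.94). By Spearman correlation only 1 and 0 of the 5 named genes stayed among the first 5 for the ELR sum and IL6, and with log2(CPM + 0.1) 1 of the 5 did so for IL6.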

How the data were processed

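RNA from 7 ovarian cancer cell lines was sequenced in 10 nanopore libraries. Per the labels' protocols, total RNA was purified on columns and libraries were made with the LSK-110 ligation kit, with end repair lengthened to 30 min. Reads were aligned with minimap2 2.24-r1122 and the build was GRCh38, per the submitters' processing notes. For the quantifier, the annotation release and any use of strand: not given in the sources used here. Values deposited by the authors are estimated counts of transcripts, not always whole. The TPM that the authors deposited equalled the count scaled to a library total of 1000000 (CPM), with no division by length.

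Transcript counts were summed per gene and rounded for edgeR 4.0.16 (R 4.3.3): TMM, the default expression filter by group, the quasi-likelihood test, two-sided, Benjamini-Hochberg adjustment over all genes tested. The method was tested on simulated data in which every gene began at the same level in all groups. That setting does not cover members without a count in IGROV-1. Line comparisons used all 10 libraries in 8 groups, and the instrument comparison used the 4 IGROV-1 libraries. Each SE is the log2 change divided by the root of its F value. A fold against a gene without counts was set against 3 counts over the group. It takes the counted level of the line, so it is not a 95% limit. Level intervals are exact Poisson and share intervals Wilson, at 95%, for counting error only. IGROV-1 replicates differed by more than counting noise (chi-square per degree of freedom 4.36 and 6.73). Alternatives covered RLE factors, DESeq2 1.42.0, no filter, subsets of libraries and summed CXCL1 to CXCL3. Unjoined names only was also listed, but its fit was that of the main setting.

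All 10 members are named, with the 3 genes of each list (markers included) that have the widest range of log2(CPM + 1) over the 7 lines among those at 10 CPM or more in a line, every receptor, and the 5 genes most like each pattern, of which 1 is not reported here. The members and lists were chosen with earlier results of these data known.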

Additional observations from a re-analysis of the deposited data

How the results depend on the processing

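Member counts called against IGROV-1 PromethION moved by over 1.5 times in 3 lines. With DESeq2 the number was 3 in OVKATE (5 with edgeR) and 5 in COV362 (8 with edgeR). Leaving out each IGROV-1 library in turn gave 3 to 5 in OVKATE, 1 to 2 in SK-OV-3 and 4 to 6 in COV362, with the lowest value each time without MinION replicate 1. No filter and the PromethION libraries alone kept every count within 1.5 times. RLE factors, the 4 IGROV-1 libraries as 1 group and mitochondrial rRNA left out gave the edgeR counts in all 6 lines. Unjoined names only repeated the main fit, since no member lies under a joined identifier, so its equal counts test nothing. Of 44 member comparisons with counts above the floor, none reversed under any alternative. Only LIF had counts in IGROV-1 PromethION, so a reversal was hardly possible for the other members. Of the 44, 41 were called, and 26 kept the call under every alternative. The 15 others had at most 32 counts in the line, apart from LIF in OVKATE (93 counts). With CXCL1 to CXCL3 summed into 1 entry, 6 of 8 entries were called in COV362, 7 in COV504 and 4 in OVKATE. It was 7 in OVMANA, 5 in OVTOKO and 2 in SK-OV-3. CXCL1 alone was called in all 6 lines, so a call of the summed entry was to be foreseen. The sum cannot show whether the separate CXCL2 and CXCL3 calls rest on reads of CXCL1. Replicate numbers are shared by the IGROV-1 instrument groups, but the labels tie them to no common batch. Deviations of same-numbered libraries correlated at 0.367 over 10041 genes. Some genes followed the number closely. KRT18 was at 262.7 CPM (PromethION) and 243.6 CPM (MinION) in replicate 1, and at 1041 and 1080 CPM in replicate 2. LIF was at 10.7 and 7.09 CPM in replicate 1 and at 16.3 and 11.4 CPM in replicate 2. The main fits left this pairing out, and what the shared number stands for was not tested. With the replicate block, the members called were 8, 9, 5, 9, 7 and 3 in the same order of lines, and the LIF difference between instruments was -0.59 (log2). Counts of list genes moved more: over the alternatives, 31 of 48 list counts of genes called higher and 34 of 48 called lower moved by over 1.5 times or to or from 0. Genes called higher ran from 2 to 8 for upstream cytokines in COV362, from 1 to 6 for NF-kB subunits in OVTOKO, from 0 to 3 for the same list in SK-OV-3, and for NF-kB targets from 4 to 8 in OVKATE and from 3 to 7 in OVMANA. TMM scaling set CXCL5 in OVMANA at 3251 CPM and CXCL1 in OVTOKO at 416.6 CPM. Depth limits every statement on a gene without counts to the floors given with the levels.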
